A study of Mus musculus with 54 samples.

Results

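The suprachiasmatic nucleus (SCN), the hypothalamic nucleus that holds the master circadian clock of mammals, was compared between ZT14 and ZT18, in the early and the middle of the night (ZT counts hours from lights on). The members were chosen by timepoint alone. They are the 3 biological replicates of each, so 6 of the 18 biological replicates of the series. With 3 technical replicates each, these make up 18 of its 54 samples. All genes with reads were described. Each biological replicate was a pool of SCN tissue from 5 male C3H/HeH mice aged 10 to 12 weeks, untreated apart from the lighting. The mice were kept in a 12:12 light/dark cycle and were housed singly before sampling. The SCN was cut out of Nissl-stained sections by laser-capture microdissection. About 1 ng of its RNA was amplified before paired-end sequencing of 100 bp reads in 3 technical replicates. A pool mixes individual mice, neurons and glia, so a smaller share of 1 cell type cannot be told apart from less RNA per cell.

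In the SCN, CLOCK and BMAL1 drive genes that carry E-boxes, among them those of the Period and Cryptochrome repressors, whose RNA rises during the day and falls at night. Light at night reaches SCN neurons through glutamate, calcium and CREB, and can switch on *Per1*, *Per2* and immediate early genes. Electrical activity of SCN neurons is high by day and low at night. ZT14 lies in the window in which light delays the clock, and at ZT18 the nocturnal mouse is at mid-night.

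Between 15412981 (ZT18 pool C) and 35820945 (ZT14 pool A) reads were counted on genes in the 6 pools, and from 16524 to 21395 genes had a read. Levels are given as CPM (counts per 1000000 reads of the TMM-normalized library), always in the order of pools A, B and C. ZT18 pool C stood apart. Its log2 levels correlated at 0.832 to 0.844 with the other 5 pools across genes with a mean of at least 1 CPM, whereas those 5 correlated at 0.929 to 0.963 with each other. Values without it are therefore given beside the main results. With the pools of the other 4 timepoints, the median correlation was 0.854 to 0.885 for ZT14 and 0.813 to 0.872 for ZT18, below the 0.930 between ZT14 and ZT18 themselves. The study speaks of a sequencing batch, but the labels assign none to a pool, so batch could not be entered in the test and its part was not tested.

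The tissue carried its markers. *Vip*, a peptide of the ventral SCN, had 1053, 1090 and 747 CPM at ZT14 and 1137, 1129 and 1741 CPM at ZT18. *Six6*, a transcription factor of SCN neurons, had 83.6, 72.4 and 65.4 CPM at ZT14 and 143, 127 and 88.3 CPM at ZT18, and *Avp*, the vasopressin gene of the dorsal SCN, had 56.2, 66.6 and 40.8 CPM at ZT14 and 21.9, 23.6 and 28.9 CPM at ZT18. All 3 were present in every pool, and none passed the test between the timepoints (adjusted p = 0.425, 0.164 and 0.0952 in edgeR's quasi-likelihood test). The 12 markers of SCN neurons summed to 3267, 2914 and 2392 CPM at ZT14 and 3523, 3332 and 3590 CPM at ZT18, lower in every ZT14 pool than in any ZT18 pool. *Vip* was the highest of the 12 in every pool. By gene the list was even, with 6 higher at ZT14, 6 higher at ZT18 and a median log2 difference of -0.01. RNA of other cells varied from pool to pool, as the plot of cell type markers shows. The 8 markers of the choroid plexus, which makes cerebrospinal fluid, summed to 21.7, 231 and 1405 CPM at ZT14 and 31.2, 28.3 and 29.5 CPM at ZT18. In ZT14 pools B and C nearly all of this was *Ttr*, the transthyretin gene, with 6.89, 211 and 1348 CPM at ZT14 and 14.8, 10.9 and 18.3 CPM at ZT18. The other 4 pools were low, and *Folr1*, the folate receptor of this tissue, was at or near 0 in all of them. The 13 markers of telencephalic and thalamic neurons summed to 549.7, 717 and 437 CPM at ZT14 and 316, 206 and 412 CPM at ZT18, higher in every ZT14 pool than in any ZT18 pool. Of 8 markers of the optic chiasm and retinal axons 6 were tested, among them the neurofilament genes *Nefh*, *Nefm* and *Nefl*, which other neurons use too. The 6 summed to 392 to 575 CPM at ZT14 and to at most 313 CPM at ZT18, again without overlap. *Opn4*, the melanopsin gene of retinal ganglion cells, was at or near 0 in all 6 pools. The 10 markers of endothelial cells, which line blood vessels, summed to 315, 304 and 318 CPM at ZT14 and 373, 375 and 347 CPM at ZT18, higher in every ZT18 pool. For 6 of these 10 genes the ZT18 pools lay above the ZT14 pools, as for 10.2% of all genes tested. The median log2 difference of the list was -0.44, -0.39 without ZT18 pool C and -0.45 with length levelled. The part of these markers in the genes higher at ZT18 was not tested.

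**Figure D1:**
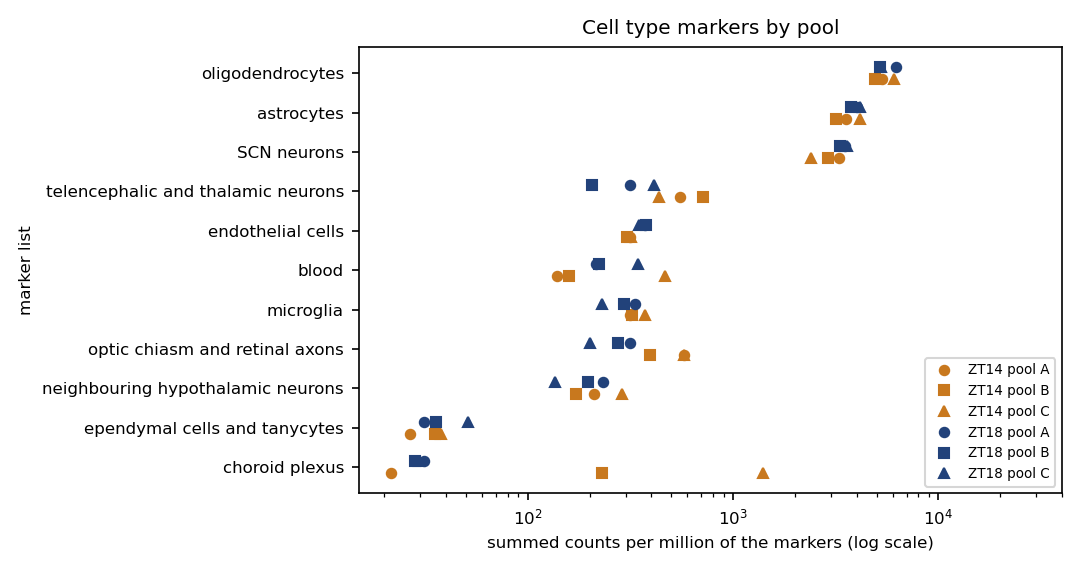
Summed CPM (horizontal, log scale) of 11 lists of cell type markers in the 3 ZT14 pools (orange) and the 3 ZT18 pools (blue), 1 symbol per pool. The choroid plexus sums reach 231 and 1405 CPM in ZT14 pools B and C against at most 31.2 CPM in the ZT18 pools, while those of oligodendrocytes and astrocytes overlap between the timepoints.

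Within the telencephalic list the pools differed by gene. *Ppp1r1b*, a signalling protein of striatal neurons, had 229.9, 337 and 20.8 CPM at ZT14 and 60.5, 43.4 and 104 CPM at ZT18, whereas *Neurod6*, a transcription factor of cortical neurons, had 22.3, 20.1 and 81.7 CPM at ZT14 and 11.1, 9.12 and 23.1 CPM at ZT18. ZT14 pools A and B were high for the first, and ZT14 pool C for the second. In this list 3 genes were called higher at ZT14 and 0 at ZT18. At an unadjusted p of 0.05 these counts were 5 and 0, beside 7.09% and 6.45% of all genes, and 9 and 1 without ZT18 pool C. The median log2 difference was 1.50, and 2.03 without ZT18 pool C. None of the 13 genes was at 0 in all pools, and no value was corrected for them. *Slc17a7*, the vesicular glutamate transporter of cortical neurons, was 1 of the 3 called genes, with 49.5, 50.7 and 82.8 CPM at ZT14 and 11, 18.4 and 17.1 CPM at ZT18 (log2 difference 1.98, SE 0.40, adjusted p = 0.0352). *Adarb2*, which encodes an RNA-binding protein related to the RNA-editing enzymes, had 7.17, 5.66 and 17.8 CPM at ZT14 and 0.640, 0.353 and 0 CPM at ZT18 (adjusted p = 0.0397). *Cdhr1*, a cadherin known from the olfactory bulb and photoreceptors, had 1.59, 4.01 and 4.40 CPM at ZT14 and 0, 0.0642 and 0 CPM at ZT18 (adjusted p = 0.0328), with 2 reads in all at ZT18. Both were at or near 0 in the ZT18 pools.

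Of 18941 genes tested, 108 differed between ZT14 and ZT18 at an adjusted p under 0.05. More of them were higher at ZT14, 78 genes (0.412% of those tested), than at ZT18, 30 genes (0.158%). The genes higher at ZT14 included Period genes, immediate early genes, calcium pumps and channels, glutamate receptors and regulators of small GTPases. The genes higher at ZT18 were more often short and included an inhibitor of protein kinase A, glial genes and a mitochondrial ribosomal protein. The median difference of the called genes was 2.50-fold for those higher at ZT14 and 1.89-fold for those higher at ZT18. Of the 106 called genes with a symbol, 103 were protein coding and 0 were annotated as lincRNA. Over all 18716 tested genes with a symbol these counts were 15108 and 227. In all 108 the 3 pools of one timepoint lay above the 3 of the other, which also held for 11.6% of all genes with ZT14 on top and for 10.2% with ZT18 on top. At an unadjusted p under 0.05, 1343 genes (7.09%) were higher at ZT14 and 1221 (6.45%) at ZT18. DESeq2 called 449 genes (2.37%) higher at ZT14 and 393 (2.07%) at ZT18, the 108 among them.

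The 108 calls lay close to the threshold, with adjusted p between 0.0242 and 0.0492. The number called fell to 0 without ZT14 pool A, ZT18 pool B or ZT18 pool C (1909, 2655 and 2130 genes at an unadjusted p under 0.05), to 1 without ZT14 pool B and to 2 without ZT14 pool C. In each of these fits, all 108 genes had the same direction, which separated pools fix in part, and an unadjusted p of at most 0.00278.

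**Figure D2:**
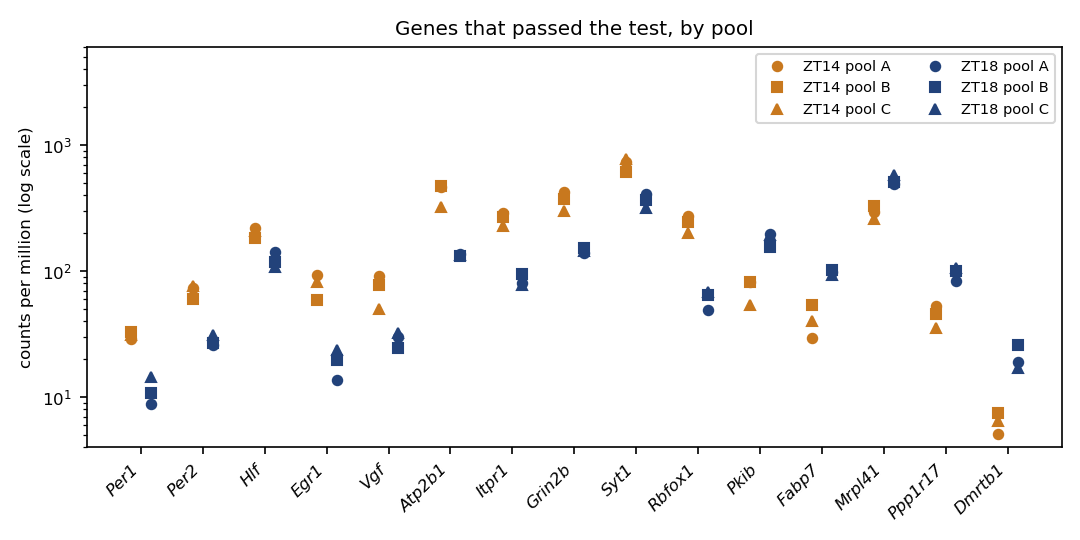
CPM (vertical, log scale) of 15 genes with an adjusted p under 0.05, 1 symbol per pool, ZT14 in orange and ZT18 in blue. For the 10 genes on the left the ZT14 pools lie above the ZT18 pools, and for the 5 on the right they lie below, with no overlap for any gene.

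The difference followed gene length. Among the quintile of genes with the longest exonic sequence (6737 bases or more), the median log2 difference was 0.19, and 53 genes were called higher at ZT14 against 1 at ZT18. Among the shortest quintile (1432 bases or less) it was -0.07, with 0 genes higher at ZT14 and 12 at ZT18. The median exonic length was 9745 bases for the genes higher at ZT14 and 1942 bases for those higher at ZT18, beside 3573 bases over all genes. Reads on the longest quintile made up 25.1% to 25.8% of a ZT14 pool and 21.6% to 22.7% of a ZT18 pool. When the trend of each pool with length was levelled, an alternative chosen after seeing the data, 1 gene was called (*Pkib*, higher at ZT18). At an unadjusted p, 1133 genes (6.05%) were then higher at ZT14 and 1171 (6.26%) at ZT18. The levelling left a shift in the shortest quintile, whose median became 0.20. Of the 106 called genes with a known length, all kept their direction and an unadjusted p under 0.05, which their choice from these same, separated pools fixes in part. The median over those higher at ZT14 went from 1.32 to 1.11 on the log2 scale and over those higher at ZT18 from -0.92 to -0.78. The trend with length and the timepoint cannot be told apart here.

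**Figure D3:**
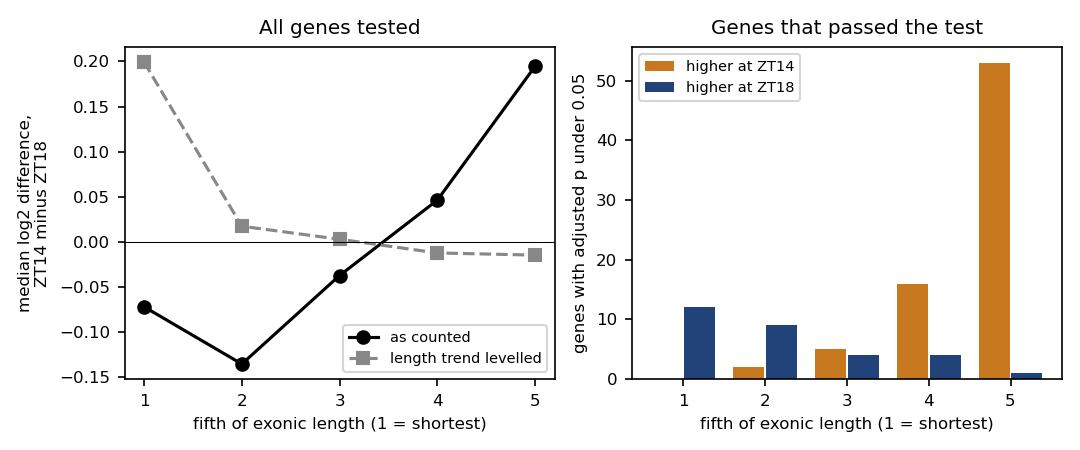
Left, median log2 difference (ZT14 minus ZT18) of all genes tested in quintiles of exonic length, as counted (black) and after levelling each pool's trend with length (grey). Right, the number of genes with an adjusted p under 0.05 in each quintile, where 53 of those higher at ZT14 are in the longest quintile and 12 of those higher at ZT18 in the shortest.

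Clock genes lay on the ZT14 side as a list. Of 26 tested, 3 were called higher at ZT14 and 0 at ZT18. At an unadjusted p of 0.05 these counts were 10 and 0, beside 7.09% and 6.45% of all genes. The median log2 difference was 0.40 beside 0.01 over all genes. Without ZT18 pool C it was 0.31, and with length levelled 0.32. *Per1* and *Per2* encode repressors that close the feedback loop. *Per1* (chr11:69095217-69109960 on GRCm38) had 29.1, 33 and 31 CPM at ZT14 and 8.80, 10.8 and 14.5 CPM at ZT18 (log2 difference 1.45, SE 0.29, adjusted p = 0.0324). *Per2* (chr1:91415982-91459324) had 73, 59.6 and 76 CPM at ZT14 and 25.8, 26.7 and 30.9 CPM at ZT18 (log2 difference 1.32, SE 0.29, adjusted p = 0.047). Both were well over 2-fold higher at ZT14, and their pools were tight. *Hlf*, a transcription factor that binds D-boxes, had 219, 184 and 207 CPM at ZT14 and 143, 119 and 108 CPM at ZT18 (log2 difference 0.72, SE 0.14, adjusted p = 0.0309), a smaller step.

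Other members of the clock list fell short of the threshold. *Ciart*, a repressor of CLOCK and BMAL1, had 59.2, 41.2 and 38.5 CPM at ZT14 and 19.9, 14.4 and 5.80 CPM at ZT18 (log2 difference 1.78, SE 0.50, adjusted p = 0.107). *Bhlhe40*, another repressor, had 176, 79.7 and 165 CPM at ZT14 and 89.9, 74.9 and 59.4 CPM at ZT18, with ZT14 pool B inside the range of ZT18. For *Tef*, a relative of *Hlf*, the values were 196, 219.5 and 230.4 CPM at ZT14 and 156, 155 and 147 CPM at ZT18 (adjusted p = 0.11). The activators *Arntl*, which encodes BMAL1, and *Clock* had log2 differences of 0.18 and 0.14 (adjusted p = 0.85 and 0.876). The repressors *Cry1* and *Per3* had 0.11 and 0.45 (adjusted p = 0.916 and 0.665). For *Nr1d1*, a nuclear receptor that represses *Arntl*, the values were 203, 141 and 217 CPM at ZT14 and 206, 156 and 71.2 CPM at ZT18, so that ZT18 pool C alone was low.

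Promoters of the called genes were searched on both strands, from 250 bases before to 50 after the start, in RefSeq sequences of GRCm38.p6. The E-box was spelled CACGTG, the cAMP response element (CRE) TGACGTCA and the D-box TTACGTAA or TTATGTAA. The first 3 spellings share the letters ACGT at their centre. Of 76 named genes higher at ZT14, 53 had a promoter in the table, and 7 of these held an E-box (*Atp2b1*, *Cbx6*, *Cnr1*, *Etl4*, *Kif1a*, *Per1* and *Reln*), which is 13.2% beside 8.09% of 27025 genes with a promoter. None of the 22 matched genes higher at ZT18 held one. A CRE stood in *Hlf* and *Plk2* of the genes higher at ZT14 and in *Rnf7* of those higher at ZT18, beside 2.03% of all genes, and a D-box in *Atp2b2*, beside 1.23%. The palindromic glucocorticoid response element was in none of the called genes and in 0.0111% of all. A match of letters is not a binding site. The stretches of 100 bases around the match are printed for 2 genes with an E-box, 2 with a CRE and the 1 with a D-box, each on the strand of its gene, with the motif in capitals. *Per1*, *Cnr1* and *Plk2* lie on the plus strand, *Hlf* and *Atp2b2* on the minus strand. The window of *Per1* belongs to a RefSeq start that lies within the gene's annotated span.
Per1 chr11:69098737-69098836: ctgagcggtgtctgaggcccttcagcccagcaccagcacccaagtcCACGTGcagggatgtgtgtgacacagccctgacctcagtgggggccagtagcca
Cnr1 chr4:33924544-33924643: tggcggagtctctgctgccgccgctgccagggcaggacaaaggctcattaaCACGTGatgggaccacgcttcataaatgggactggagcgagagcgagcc
Hlf chr11:90390918-90391017: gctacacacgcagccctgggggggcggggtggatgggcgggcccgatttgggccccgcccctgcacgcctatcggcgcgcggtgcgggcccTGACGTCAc
Plk2 chr13:110394936-110395035: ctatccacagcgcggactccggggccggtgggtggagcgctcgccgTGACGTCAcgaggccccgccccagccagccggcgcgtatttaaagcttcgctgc
Atp2b2 chr6:113934685-113934784: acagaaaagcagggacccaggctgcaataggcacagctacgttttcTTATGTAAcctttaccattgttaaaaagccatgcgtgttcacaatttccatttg
The E-box of *Per1* starts 166 bases before the transcription start, that of *Cnr1* 49 bases, and the CRE of *Hlf* 9 bases and of *Plk2* 62 bases before it. *Cnr1* encodes the cannabinoid receptor of nerve endings and had 174, 225 and 124 CPM at ZT14 and 44, 66.2 and 58.8 CPM at ZT18 (log2 difference 1.63, SE 0.30, adjusted p = 0.0245). *Plk2*, an activity-regulated kinase of synapses, had 314, 247 and 219 CPM at ZT14 and 129, 141 and 70.4 CPM at ZT18 (log2 difference 1.19, SE 0.22, adjusted p = 0.0242). These 2 genes were named after their values were seen.

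Immediate early genes, which neurons switch on within minutes of activity, lay on the ZT14 side as a list. Of 41 tested, 2 were called higher at ZT14 and 0 at ZT18. At an unadjusted p of 0.05 these counts were 17 and 0, beside 7.09% and 6.45% of all genes. In 21 of the 41 all ZT14 pools lay above all ZT18 pools, as in 11.6% of all genes. The median log2 difference was 0.83, 0.93 without ZT18 pool C and 0.91 with length levelled. *Egr1*, a zinc finger transcription factor, had 93.2, 58.8 and 81.9 CPM at ZT14 and 13.6, 19.6 and 23.7 CPM at ZT18 (log2 difference 2.04, SE 0.36, adjusted p = 0.0242). *Vgf*, which encodes a neuropeptide precursor, had 91.7, 76.9 and 50.4 CPM at ZT14 and 29.7, 24.5 and 32.3 CPM at ZT18 (log2 difference 1.34, SE 0.26, adjusted p = 0.0289). Both were over 2-fold higher at ZT14, with no overlap of pools.

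Among those that did not pass the adjusted test, *Fos* had 34.7, 20.4 and 38 CPM at ZT14 and 14, 13.3 and 3.66 CPM at ZT18 and *Arc*, a synaptic protein gene, had 298, 94.8 and 235 CPM at ZT14 and 43.1, 47.2 and 126 CPM at ZT18. *Nr4a1*, a nuclear receptor, had 75.6, 31.8 and 62 CPM at ZT14 and 19.5, 16.7 and 21.8 CPM at ZT18, and *Dusp6*, a MAP kinase phosphatase, had 73.2, 42.5 and 78.6 CPM at ZT14 and 38.1, 33.4 and 20.2 CPM at ZT18 (adjusted p = 0.0861, the lowest after *Egr1* and *Vgf*). *Egr2* had 9.73, 9.46 and 10.1 CPM at ZT14 and 1.60, 0.161 and 0 CPM at ZT18, the largest fitted difference of the list (log2 difference 4.01, SE 1.31, adjusted p = 0.169). For *Arc*, ZT14 pool B lay below ZT18 pool C. Not every member followed. *Klf6*, *Btg2* and *Crem* had log2 differences of -0.08, -0.12 and -0.13, and *Dusp1* had 8.67, 7.84 and 13.9 CPM at ZT14 and 5.76, 5.11 and 15.7 CPM at ZT18. The telencephalic markers were also higher in the ZT14 pools (437 to 717 CPM against 206 to 412 CPM), and their part in these genes, and in the receptor, channel and synapse genes that follow, was not tested.

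**Figure D4:**
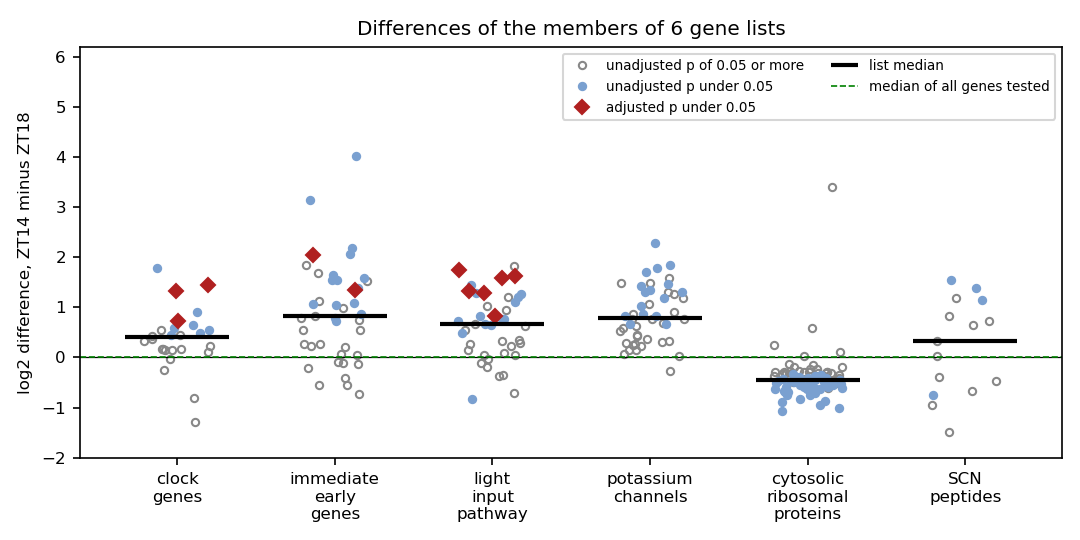
Log2 differences (ZT14 minus ZT18, vertical) of the tested members of 6 gene lists, 1 symbol per gene. Diamonds mark an adjusted p under 0.05, filled circles an unadjusted p under 0.05, thick bars the list medians (0.83 for immediate early genes, -0.44 for cytosolic ribosomal proteins) and the dashed line the median of all genes, 0.01.

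The pathway that carries light to the clock, from glutamate receptors through calcium release to kinases, gave 6 genes called higher at ZT14 and 0 at ZT18 of 41 tested. At an unadjusted p of 0.05 these counts were 18 and 1, beside 7.09% and 6.45% of all genes. With length levelled they were 11 and 4, beside 6.05% and 6.26%. The median log2 difference was 0.66, 0.53 without ZT18 pool C and 0.50 with length levelled. Among the receptors, *Grin2b*, an NMDA receptor subunit, had 427, 374 and 298 CPM at ZT14 and 139, 153 and 144 CPM at ZT18 (log2 difference 1.33, SE 0.29, adjusted p = 0.047), and *Gria3*, an AMPA receptor subunit, had 91, 71.6 and 82.7 CPM at ZT14 and 24.9, 30.6 and 26.2 CPM at ZT18 (log2 difference 1.58, SE 0.31, adjusted p = 0.0293). *Itpr1*, the IP3 receptor that releases calcium from the endoplasmic reticulum, had 289, 268 and 226 CPM at ZT14 and 80.4, 95.1 and 78 CPM at ZT18 (log2 difference 1.63, SE 0.26, adjusted p = 0.0242). The ZT14 pools of these 3 genes lay well above the highest ZT18 pool. *Ryr2*, a ryanodine receptor that also releases calcium, had 39, 33.8 and 41.4 CPM at ZT14 and 10.2, 15.9 and 7.75 CPM at ZT18 (log2 difference 1.75, SE 0.39, adjusted p = 0.0492).

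Among the kinases, *Prkcb*, a protein kinase C, had 289.6, 285 and 198 CPM at ZT14 and 66.1, 95.6 and 155 CPM at ZT18 (log2 difference 1.29, SE 0.28, adjusted p = 0.0489), with ZT18 pool C closest to ZT14. *Mapk3*, a MAP kinase, had a log2 difference of -0.11 (adjusted p = 0.911), and *Ntrk2*, the BDNF receptor, of -0.03 (adjusted p = 0.962). *Camk2a*, the calcium/calmodulin kinase of excitatory neurons, had 868, 896 and 1334 CPM at ZT14 and 347, 472 and 476 CPM at ZT18 (adjusted p = 0.0809). The 1 member with an unadjusted p under 0.05 in the other direction was *Prkg2*, a cGMP-dependent kinase, with 51.2, 41.9 and 37.2 CPM at ZT14 and 65.1, 81.2 and 84.8 CPM at ZT18 (adjusted p = 0.103).

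Of the 4 calcium pumps of the plasma membrane, 3 were called higher at ZT14. This family was picked after its values were seen. *Atp2b1* (chr10:98914406-99026143) had the smallest p of all genes, with 464, 475 and 320.4 CPM at ZT14 and 136, 132 and 134 CPM at ZT18 (log2 difference 1.65, SE 0.24, adjusted p = 0.0242). *Atp2b2* had 506, 369 and 403 CPM at ZT14 and 186, 179 and 182 CPM at ZT18 (log2 difference 1.23, SE 0.20, adjusted p = 0.0242) and *Atp2b4* 53.3, 66.5 and 54.2 CPM at ZT14 and 21.7, 26.1 and 26.5 CPM at ZT18 (log2 difference 1.23, SE 0.21, adjusted p = 0.0242). The fourth member, *Atp2b3*, was lower in level and not called, with 17.7, 11.3 and 15.6 CPM at ZT14 and 7.33, 7.55 and 9.28 CPM at ZT18 (adjusted p = 0.461). With length levelled, the unadjusted p of *Atp2b1*, *Atp2b2* and *Atp2b4* were 9.66e-06, 0.000202 and 7.79e-05.

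Ion channel genes lay on the ZT14 side with few calls. Of 46 potassium channel genes, 0 were called in either direction by edgeR. At an unadjusted p of 0.05, 16 were higher at ZT14 and 0 at ZT18, beside 7.09% and 6.45% of all genes. In DESeq2 the 46 genes gave 7 and 0 calls, beside 2.37% and 2.07%. Their median log2 difference was 0.80, and 0.79 with length levelled. *Kcna1*, a low-threshold channel, had 109, 94.6 and 68 CPM at ZT14 and 28.9, 18.5 and 30.8 CPM at ZT18, and *Kcnj3*, an inward rectifier coupled to G proteins, had 41.6, 35.9 and 48.1 CPM at ZT14 and 19.1, 20.6 and 5.80 CPM at ZT18 (adjusted p = 0.0842 and 0.0992). Neither overlapped between the timepoints. Of 35 calcium, sodium and pacemaker channel genes, *Scn8a*, a sodium channel of the spike initiation zone, was called, with 205, 135 and 173 CPM at ZT14 and 65.5, 58.6 and 75.1 CPM at ZT18 (log2 difference 1.37, SE 0.27, adjusted p = 0.0296). The median of that list was 0.57, and 0.31 with length levelled. *Scn4b*, a sodium channel subunit, was high in ZT14 pools A and B only, with 338, 443 and 49.5 CPM at ZT14 and 48.4, 39.8 and 54.3 CPM at ZT18, the pools in which *Ppp1r1b* was high too.

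The release machinery of the synapse gave 2 calls of 30, both higher at ZT14, and a median of 0.64 (0.54 without ZT18 pool C, 0.53 with length levelled). *Syt1*, the calcium sensor of vesicle release, had 739, 608 and 773 CPM at ZT14 and 409, 369 and 318 CPM at ZT18 (log2 difference 0.95, SE 0.18, adjusted p = 0.0245). *Dnm1*, the dynamin that retrieves vesicles, had 99.5, 102 and 136 CPM at ZT14 and 58.7, 61.2 and 61.8 CPM at ZT18 (log2 difference 0.89, SE 0.18, adjusted p = 0.0345). *Bsn*, a scaffold of the active zone, had 125, 116 and 116 CPM at ZT14 and 38.1, 60.4 and 66.2 CPM at ZT18 (adjusted p = 0.0842). GABA genes, by which SCN neurons signal to each other, gave 0 calls of 24 in edgeR. At an unadjusted p of 0.05, 5 were higher at ZT14 and 1 at ZT18, beside 7.09% and 6.45% of all genes. In DESeq2 the 24 genes gave 3 and 1 calls, beside 2.37% and 2.07%. *Slc12a5*, the neuronal chloride exporter, had 82.6, 86.8 and 80.5 CPM at ZT14 and 43.6, 39.1 and 58.5 CPM at ZT18 (adjusted p = 0.0756).

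Exchange factors and inactivators of small GTPases, which set the actin cytoskeleton and neurite shape, gave 3 calls of 111, all higher at ZT14. Their median was 0.26, and 0.12 with length levelled. *Arhgap32* had 123, 95.1 and 108 CPM at ZT14 and 35.3, 30.9 and 33.3 CPM at ZT18 (log2 difference 1.71, SE 0.31, adjusted p = 0.0242) and *Rasal1* had 24.1, 31.6 and 35.1 CPM at ZT14 and 9.25, 8.48 and 6.65 CPM at ZT18 (log2 difference 1.90, SE 0.42, adjusted p = 0.0492). *Arhgap20* had 44.6, 30.9 and 34.2 CPM at ZT14 and 15.3, 13.2 and 7.38 CPM at ZT18 (log2 difference 1.61, SE 0.30, adjusted p = 0.0242), and another gene overlaps it on the opposite strand. All 3 inactivate small GTPases. The actin cytoskeleton itself gave 0 calls of 48 in edgeR. At an unadjusted p of 0.05, 10 were higher at ZT14 and 4 at ZT18, beside 7.09% and 6.45% of all genes. In DESeq2 the list gave 2 and 1 calls, beside 2.37% and 2.07%. Its smallest p belonged to *Pfn2*, the neuronal profilin, with 351, 322 and 362 CPM at ZT14 and 490.5, 604 and 503 CPM at ZT18 (adjusted p = 0.0681).

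Among called genes with a mean of at least 5 CPM at ZT14, the largest differences were those of *Adarb2* and *Slc17a7*, both of the telencephalic marker list, and of *Mas1*, *Pcdh7*, *Egr1*, *Rbfox1*, *Rasal1*, *Sez6*, *Sorcs3* and *Ryr2*. *Mas1*, a G protein-coupled receptor known from hippocampal neurons, had 6.05, 6.10 and 6.41 CPM at ZT14 and 0.480, 0.128 and 0 CPM at ZT18 and so was nearly absent at ZT18. *Pcdh7*, a protocadherin of cell contacts, had 36.1, 23.2 and 34.6 CPM at ZT14 and 9.31, 7.48 and 2.20 CPM at ZT18 (log2 difference 2.29, SE 0.41, adjusted p = 0.0242). *Rbfox1* and *Rbfox3* encode splicing regulators of neurons. *Rbfox1* had 275, 247 and 199 CPM at ZT14 and 49.5, 64.4 and 68 CPM at ZT18 (log2 difference 1.99, SE 0.36, adjusted p = 0.0242), while *Rbfox3*, the gene of the NeuN antigen, had 92, 60.9 and 76 CPM at ZT14 and 26.6, 30.6 and 18.2 CPM at ZT18 (log2 difference 1.60, SE 0.27, adjusted p = 0.0242). The third member, *Rbfox2*, had 78.2, 75 and 75.3 CPM at ZT14 and 68.4, 62 and 41.6 CPM at ZT18 (adjusted p = 0.519), so the 2 called members were over 2-fold higher and the third was not called. This family was also picked after its values were seen. *Sez6*, a membrane protein of dendrites, and *Sorcs3*, a sorting receptor, had log2 differences of 1.82 and 1.76. Besides *Atp2b1* and *Itpr1*, the smallest p values belonged to *Slc4a8*, a sodium bicarbonate transporter of neurons (40.0, 41.4 and 48.8 CPM at ZT14 and 17.4, 19.8 and 14.4 CPM at ZT18), *Sort1*, the sorting receptor sortilin (145, 124 and 143 CPM at ZT14 and 65.6, 47.9 and 52.1 CPM at ZT18), and *Ndst1*, an enzyme of heparan sulfate synthesis (76.5, 67.9 and 55 CPM at ZT14 and 33.2, 23.1 and 26.5 CPM at ZT18), each with an adjusted p of 0.0242.

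Genes higher at ZT18 were fewer. *Pkib* (chr10:57631981-57741112), which encodes an inhibitor of protein kinase A, had 82.2, 81.6 and 54.1 CPM at ZT14 and 195, 156 and 193 CPM at ZT18 (log2 difference -1.32, SE 0.20, adjusted p = 0.0242). It was called also with length levelled, with a log2 difference of -1.58 and an adjusted p of 0.0247. *Fabp7* (chr10:57784881-57788450), the fatty acid binding protein of brain glia, had 29.4, 53.9 and 40.4 CPM at ZT14 and 98.6, 102 and 92.7 CPM at ZT18 (log2 difference -1.25, SE 0.20, adjusted p = 0.0242). *Ppp1r17*, a phosphatase regulator and substrate of cGMP-dependent kinase, had 53.1, 46 and 35.3 CPM at ZT14 and 82.8, 99.7 and 105 CPM at ZT18 (log2 difference -1.10, SE 0.21, adjusted p = 0.0304). Each of these 3 genes was over 2-fold higher at ZT18, and no pool of one timepoint reached the range of the other.

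*Fam107a*, an actin-associated protein rich in astrocytes, had 74.4, 71.9 and 106 CPM at ZT14 and 141, 189.7 and 206 CPM at ZT18 (log2 difference -1.09, SE 0.21, adjusted p = 0.0289), while *Thrsp*, a thyroid hormone response gene of lipid synthesis, had 23.8, 26.6 and 19.7 CPM at ZT14 and 43.7, 48.4 and 53.7 CPM at ZT18 (log2 difference -1.06, SE 0.22, adjusted p = 0.0396). The 10 astrocyte markers overlapped between the timepoints, with sums of 3539, 3171 and 4164 CPM at ZT14 and 3999, 3767 and 4139 CPM at ZT18. *Ddc*, the decarboxylase that makes monoamines, was named after its values were seen and had 22.9, 19.7 and 23.5 CPM at ZT14 and 40.6, 40.1 and 45.9 CPM at ZT18 (log2 difference -0.94, SE 0.20, adjusted p = 0.0396). At lower levels, *Dmrtb1* had 5.13, 7.49 and 6.41 CPM at ZT14 and 19, 25.9 and 17.1 CPM at ZT18, *Pabpc1l* had 4.21, 3.16 and 3.57 CPM at ZT14 and 8.70, 9.96 and 16.2 CPM at ZT18 and *4933407L21Rik*, which overlaps *Gpr55* on the opposite strand, had 6.36, 4.01 and 7.06 CPM at ZT14 and 17.6, 10.8 and 22.1 CPM at ZT18. *Ccdc90b* overlaps *Ankrd42* and had 28.5, 28.6 and 23.4 CPM at ZT14 and 45, 46.6 and 75.6 CPM at ZT18. The mitochondrial proline tRNA gene *mt-Tp* had 13.8, 26 and 20.3 CPM at ZT14 and 42.2, 38.8 and 92.7 CPM at ZT18, with ZT18 pool C the highest, as for the mitochondrial genome as a whole (6.86% of its reads against 2.75% to 4.62% in the other 5 pools).

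Ribosomal and respiratory genes, which are short, lay on the ZT18 side as lists with few calls. Of 83 cytosolic ribosomal protein genes, 0 were called in either direction by edgeR. At an unadjusted p of 0.05, 47 were higher at ZT18 and 0 at ZT14, beside 6.45% and 7.09% of all genes. In DESeq2 the 83 genes gave 18 and 0 calls, beside 2.07% and 2.37%. They summed to 13707, 15971 and 15345 CPM at ZT14 and 18771, 19425 and 24616 CPM at ZT18. The median log2 difference was -0.44, -0.32 without ZT18 pool C, when 24 passed the unadjusted p, and -0.26 with length levelled, when 22 did. *Rpsa*, a protein of the small subunit and the laminin receptor, had 223, 211 and 306 CPM at ZT14 and 410.5, 484 and 456 CPM at ZT18 (adjusted p = 0.055), and its processed pseudogene *Rpsa-ps10* was called, with 60.0, 56.6 and 78.2 CPM at ZT14 and 104, 125 and 128 CPM at ZT18 (log2 difference -0.88, SE 0.19, adjusted p = 0.0459). Reads could be split between these near-identical copies, so the call is uncertain. *Rpl41* had 707, 806 and 785 CPM at ZT14 and 1054, 1041 and 1458 CPM at ZT18 (adjusted p = 0.0696).

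Of 74 mitochondrial ribosomal protein genes, *Mrpl41* was called, with 296, 328 and 261 CPM at ZT14 and 495, 512 and 581 CPM at ZT18 (log2 difference -0.84, SE 0.15, adjusted p = 0.0242). At an unadjusted p of 0.05, the 74 genes gave 17 higher at ZT18 and 0 at ZT14, beside 6.45% and 7.09% of all genes. Their median was -0.23, and -0.14 with length levelled. The 17 became 9 without ZT18 pool C and 7 with length levelled. The 81 nuclear genes of the respiratory chain gave 0 calls in edgeR. At an unadjusted p of 0.05, 21 were higher at ZT18 and 0 at ZT14, beside 6.45% and 7.09% of all genes. In DESeq2 the 81 genes gave 4 and 0 calls, beside 2.07% and 2.37%. Their median of -0.24 moved to -0.05 with length levelled, when 4 were left at the unadjusted p, and 8 were left without ZT18 pool C. The 8 protein-coding genes of the mitochondrial genome that were in the list and tested had a median of -0.02, and 0.45 without ZT18 pool C. *Nudt2*, a hydrolase of dinucleotides, had 41.8, 45 and 39.1 CPM at ZT14 and 82.4, 82.2 and 74.8 CPM at ZT18 (log2 difference -0.93, SE 0.17, adjusted p = 0.0242), and *2610301B20Rik* had 91.3, 75.5 and 74 CPM at ZT14 and 130.1, 145 and 151 CPM at ZT18 (log2 difference -0.82, SE 0.15, adjusted p = 0.0242), the other 2 of the 5 smallest p values at ZT18.

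Peptides of SCN neurons lay on both sides, with 0 calls of 15 in edgeR. At an unadjusted p of 0.05, 3 were higher at ZT14 and 1 at ZT18, beside 7.09% and 6.45% of all genes. In DESeq2 the 15 genes gave 2 and 1 calls, beside 2.37% and 2.07%. *Nms*, neuromedin S of a wide set of SCN neurons, had 102, 106 and 73 CPM at ZT14 and 162, 147 and 167 CPM at ZT18, higher at ZT18 in every pool (adjusted p = 0.0842). *Prok2*, the output peptide prokineticin, had 8.14, 7.52 and 4.70 CPM at ZT14 and 1.79, 3.69 and 1.28 CPM at ZT18 (adjusted p = 0.148). *Avp* ran the same way as *Prok2*, with a log2 difference of 1.14, and *Vip* the other way, with -0.47. *Penk*, the enkephalin precursor, was high only in ZT14 pools A and B, with 1226, 1392 and 171 CPM at ZT14 and 338, 313 and 413 CPM at ZT18. *Ppp1r1b* of the telencephalic list was high in the same pools, and the part of such neurons in the *Penk* values was not tested. Among the receptors of SCN peptides, *Sstr2*, a somatostatin receptor, had 18.5, 12.1 and 18.1 CPM at ZT14 and 3.58, 3.82 and 0.549 CPM at ZT18 (adjusted p = 0.0842). This receptor list had 0 calls of 21 in edgeR. At an unadjusted p of 0.05, 5 were higher at ZT14 and 1 at ZT18, beside the same shares of all genes, and DESeq2 called 4 and 0.

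Several other lists had medians close to that of all genes. Proteasome subunits, translation factors, splicing factors, heat shock and cold-inducible genes and enzymes of cholesterol synthesis had medians of -0.11, -0.10, -0.08, 0.05 and -0.02. None of these lists held a call in edgeR. Of their 215 genes tested, 7 (3.26%) were higher at ZT14 and 26 (12.1%) at ZT18 at an unadjusted p of 0.05, beside 7.09% and 6.45% of all genes. In DESeq2 the 215 genes gave 3 and 9 calls, beside 2.37% and 2.07%. Translation factors gave 11 of the 26. *Eif4e*, the cap-binding factor of translation, had 228, 216 and 228 CPM at ZT14 and 323, 365 and 321 CPM at ZT18 (adjusted p = 0.0728), and *Eef1a1*, the elongation factor, had 1936, 1771 and 1783 CPM at ZT14 and 2710, 3115 and 2659 CPM at ZT18 (adjusted p = 0.0681). Both lay higher in every ZT18 pool than in any ZT14 pool. Glucocorticoid response genes lay further to the ZT14 side, with a median of 0.35 and 1 call, *Per1*. *Klf9*, which corticosterone induces, had 71.8, 66 and 63.8 CPM at ZT14 and 36.3, 30.9 and 40.6 CPM at ZT18 (adjusted p = 0.0595), and *Zbtb16* had 12.6, 13.6 and 12.5 CPM at ZT14 and 4.06, 3.53 and 2.56 CPM at ZT18 (adjusted p = 0.139).

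The called genes were then followed to a later pair of timepoints, ZT22 at the end of the night and ZT2 in the early day, whose pools entered the calls only through the shared estimate of spread. Of the 78 genes higher at ZT14, 59 were higher at ZT22 than at ZT2, which is 75.6% beside 51.5% of all genes, and 16 passed an unadjusted p of 0.05 in that direction (2.00% of all genes) and 3 in the other (1.59%). Of the 30 genes higher at ZT18, 19 were higher at ZT2 than at ZT22, and 2 passed the unadjusted p in that direction and 1 in the other. No called gene passed the adjusted test between ZT22 and ZT2, which only 6 of all 18941 genes tested passed. Telencephalic and thalamic markers, higher in the ZT14 pools, had a median log2 difference (ZT22 minus ZT2) of 0.91, beside 0.01 over all genes. At an unadjusted p of 0.05, 3 of them were higher at ZT22 and 0 at ZT2. The medians of the optic chiasm and choroid plexus markers were 0.57 and -1.73. The part of such markers in these counts was not tested. *Rbfox1* and *Slc17a7*, the latter of the telencephalic list, had log2 differences of 1.34 and 1.54 (adjusted p = 0.717 and 0.632 in edgeR). The called clock genes had the opposite sign. For *Per1*, *Per2* and *Hlf* the log2 differences were -0.84, -1.28 and -0.55 (adjusted p = 1, 0.309 and 0.632).

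Over the 6 timepoints the Period genes were highest in the day. *Per2* had a mean ± SD (n = 3) of 123 ± 60.0 CPM at ZT6 and 106 ± 9.74 CPM at ZT10, then 69.6 ± 8.75 CPM in the early night, 27.8 ± 2.71 CPM at mid-night and 10.9 ± 4.02 CPM by ZT22. *Vgf* took a like course, with 200.4 ± 21.9 CPM at ZT6, 73 ± 20.9 at ZT14 and 28.9 ± 3.97 at ZT18. *Egr1* did not, with 17.8 ± 5.39 CPM at ZT6 and 21.3 ± 8.89 CPM at ZT10, then 78 ± 17.5 CPM in the early night, 19 ± 5.05 CPM at mid-night and 56.7 ± 19.9 CPM by ZT22, high at ZT14 and ZT22 and low between them. *Fabp7* was lowest at ZT14, with 41.2 ± 12.3 CPM against 314 ± 30.4 at ZT6 and 97.8 ± 4.72 at ZT18. *Pkib* had 72.6 ± 16.1 CPM in the early night, 181 ± 22.3 CPM at mid-night and 49.7 ± 12.7 CPM by ZT22, so that its ZT18 level stood above both neighbours. Levels at ZT6 and ZT10 rest on counts that differ between the 2 deposited tables.

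**Figure D5:**
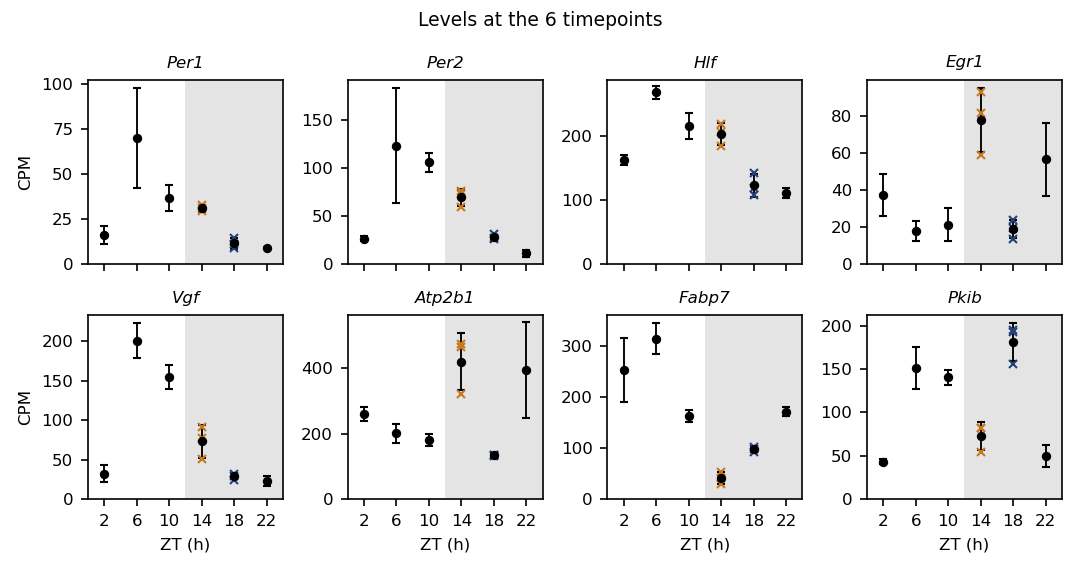
CPM of 8 genes (vertical, linear from 0) at the 6 timepoints, in hours after lights on (horizontal, night shaded). Circles and bars are the mean and SD of 3 pools, and crosses are the single pools at ZT14 (orange) and ZT18 (blue). *Per2* falls from 69.6 to 27.8 CPM and *Fabp7* goes from 41.2 to 97.8 CPM between ZT14 and ZT18.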

How the data were processed

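Laser-captured SCN of male C3H/HeH mice was sequenced at 6 timepoints, with 3 pools each. The authors used GSNAP for alignment to mm10 and HTSeq 0.5.4p1 to count reads on Ensembl genes and their own lincRNAs. They combined the technical replicates of a pool, and deposited whole-number counts without normalization (30031 genes). The second deposited table holds normalized signal, counts divided by size factors that their methods credit to DESeq2. From it, 100% of values gave whole reads (within 0.1), used as an alternative in which edgeR called 107 genes. Its ZT6 and ZT10 columns differ from the counts. No column was left unused (0). Amplification from about 1 ng can change the share of a transcript, and counting intervals were not used since pools gave the error.

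A gene was tested if more than 6 pools held at least 1 read of it (18941 genes), in edgeR 4.0.16 (TMM, quasi-likelihood F-test, R 4.3.3) in 1 fit to 18 pools, with Benjamini-Hochberg adjustment over all genes and a threshold of 0.05. The SE is the log2 difference divided by the square root of F. DESeq2 1.42.0, limma 3.58.1, other filters and scalings, a replicate block and leaving out each pool were alternatives. The offsets for length and GC (lowess span 0.3) and the removal of ZT18 pool C as a running comparison were chosen after seeing the data. Code was tested on simulated data. Pools held separate mice, as the study's methods describe, so p-values measure the spread between pools. Pools of 1 timepoint differed by more than sampling noise (chi-square per gene 41.7 to 147). An exact permutation of 3 pools against 3 cannot go below p = 0.1, so none is given per gene.

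Symbols, positions and lengths come from GENCODE M21 on GRCm38. Named genes are the 10 highest and 10 lowest differences among called genes without overlap and with a mean of at least 5 CPM at the higher timepoint, the 5 smallest p in each direction, called list members and up to 3 members with the smallest p per list. Others are said to be named after their values were seen, or fill in a list or family. Gene models without a symbol (2 of the called) are not named, and a few genes that the rule picked are not reported here. Lists, motifs and rules were chosen with earlier results of these data known.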

Additional observations from a re-analysis of the deposited data

How the results depend on the processing

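The 108 genes that differed between ZT14 and ZT18 (78 higher at ZT14 and 30 at ZT18) became 842 with DESeq2 (449 and 393), 340 with limma-voom (221 and 119), 71 with upper-quartile normalization (19 of them higher at ZT18), 172 with a filter of a mean of at least 1 CPM (73 higher at ZT18), 3 in a fit to the 6 pools only (3 and 0), 1 with length offsets (0 and 1) and 2 with length and GC offsets (2 and 0). Leaving out each pool in turn gave 0 to 86 genes, 0 to 52 higher at ZT14 and 0 to 34 higher at ZT18, with 86 only without ZT18 pool A. The fit to the 6 pools alone had fewer residual degrees of freedom, and the cause of these changes was not tested. DESeq2's size factors, no filter and the recovered reads gave 101, 125 and 107 genes, of which 91, 90 and 94 were among the 108.

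The pool letters are shared between timepoints but pair nothing in the labels. Pools of the same letter had deviations from their timepoint means that correlated at 0.04, -0.05 and -0.07, so they were not treated as paired. A replicate block gave 73 genes (58 higher at ZT14 and 15 at ZT18), 68 of them among the 108. The calls higher at ZT14 made up 72.2% of the main calls, 53.3% with DESeq2, 57.6% with the filter of 1 CPM, 64.0% without a filter and 79.5% with the block.

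All 42 called genes that the naming rule picked kept their direction under every alternative, which their separated pools fix in part. Of 34 list medians, 6 moved by more than the spread between pools with length offsets and 8 with length and GC offsets, and at most 2 under any other alternative. Without ZT18 pool C the median log2 difference of all genes went from 0.01 to -0.04, and the median of the changes gene by gene was -0.10. The number of the 108 genes that went the same way between ZT22 and ZT2 was 78 and stayed within 1.5 times of it. Low genes are limited by depth, above all in ZT18 pool C with 15412981 reads.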

Other observations

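Genes named after their values were seen add to the picture of ZT14. *Reln*, which encodes the guidance protein reelin, had 33.6, 35.7 and 24.3 CPM at ZT14 and 12.4, 14.4 and 7.51 CPM at ZT18, and *Celsr2*, a cadherin of planar polarity, had 171, 163 and 164 CPM at ZT14 and 75.9, 66.2 and 75.3 CPM at ZT18 (log2 difference 1.20, SE 0.24, adjusted p = 0.0309). *Kif1a*, the kinesin that carries synaptic vesicle precursors, had 1089, 915 and 965 CPM at ZT14 and 595, 472 and 432 CPM at ZT18 (log2 difference 0.98, SE 0.20, adjusted p = 0.0318). *Crebbp*, the coactivator that binds CREB, had 117, 86.5 and 104 CPM at ZT14 and 66, 54.8 and 43 CPM at ZT18 (log2 difference 0.91, SE 0.19, adjusted p = 0.0459), and *Foxp1*, a transcription factor of striatal and other neurons, had 147, 174 and 83.8 CPM at ZT14 and 61.2, 45.8 and 52.2 CPM at ZT18 (log2 difference 1.34, SE 0.22, adjusted p = 0.0242). *Mef2c*, an activity-dependent transcription factor, had 442, 255 and 505 CPM at ZT14 and 127, 163 and 179 CPM at ZT18, with ZT14 pool B closest to ZT18 (log2 difference 1.36, SE 0.29, adjusted p = 0.0459).

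At ZT18, *Rbx1* and *Rnf7*, the RING proteins of cullin ubiquitin ligases, were both called. *Rbx1* had 254, 269 and 267 CPM at ZT14 and 428, 428 and 403 CPM at ZT18 (log2 difference -0.67, SE 0.14, adjusted p = 0.0371) and *Rnf7* 161, 165 and 154 CPM at ZT14 and 240.2, 274 and 351 CPM at ZT18 (log2 difference -0.85, SE 0.15, adjusted p = 0.0242). *Dbi*, the acyl-CoA binding protein, had 329, 421 and 392 CPM at ZT14 and 594, 579.7 and 647 CPM at ZT18 (log2 difference -0.67, SE 0.15, adjusted p = 0.047). *Selenop*, the selenium carrier, had 274, 255 and 323 CPM at ZT14 and 421, 561 and 494 CPM at ZT18 (log2 difference -0.79, SE 0.17, adjusted p = 0.0396), and it overlaps *Ccdc152* on the opposite strand. All 4 were higher in every ZT18 pool.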
